A study of Mus musculus with 8 samples.

Results

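Collagens and laminins are the structural proteins of the extracellular matrix, and the 55 genes described here are the protein-coding genes of the deposited table whose mouse symbols follow the Col-number-a-number or Lama, Lamb and Lamc pattern, out of 22430 genes listed. They comprised 44 collagen and 11 laminin genes, which were split by the type of matrix they build into 11 fibrillar collagens, 19 basement membrane genes and 25 other collagens. Messenger RNA was sequenced from brains of 8 male C57Bl/6JRj mice, 4 of them young adults at an age of 6 months (6m) and 4 aged, at 24 months (24m), with no genetic or drug treatment at either age. The labels name the tissue both as whole brain and as a hemisphere, each library came from 1 animal, and no other age and no female was included. Whether the meninges and the choroid plexus, which hold much of the collagen of the brain, were kept at dissection was not stated.

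A collagen is a trimer of alpha chains wound into a triple helix. Fibrillar collagens, such as types I and III, assemble into cables in the meninges and around large vessels, while type IV collagen and the laminins form the sheet-like basement membrane under the brain's endothelium, around pericytes and at the astrocyte end-feet. A laminin is made of 1 alpha, 1 beta and 1 gamma chain, and the gamma chain binds nidogen, which links laminin to type IV collagen. The other collagens decorate fibrils (the FACIT collagens), form beaded microfilaments (type VI) or networks (types VIII and X), anchor basement membranes to stroma (type VII) or sit in the plasma membrane (types XIII, XVII, XXIII and XXV).

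Among the members, the laminin gamma chain genes Lamc1 and Lamc3, the X-linked type IV chains Col4a5 and Col4a6, and Col25a1 were called higher at 24m, and Col7a1, Col20a1 and Col6a1 lower. The promoters of Lamc1, Col4a5, Col4a6, Col25a1 and Col7a1 are shown here beside that of Col4a1, a type IV chain that did not pass the test; the genes shown were chosen after their values were seen. Each run is 300 bases of the GRCm39 genome, written 5′ to 3′ on the strand of the gene, from 250 bases before to 50 after the annotated start of the canonical transcript, and capitals mark the TATA box (TATAAA), the CCAAT box (CCAAT) or the GC box (GGGCGG) read on either strand, so that ATTGG and CCGCCC also appear. The windows lie at chr1:153208725-153209024 (Lamc1, minus strand), chrX:140258104-140258403 (Col4a5, plus strand), chrX:140257023-140257322 (Col4a6, minus strand), chr3:129974290-129974589 (Col25a1, plus strand), chr9:108782397-108782696 (Col7a1, plus strand) and chr8:11362777-11363076 (Col4a1, minus strand).

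Lamc1: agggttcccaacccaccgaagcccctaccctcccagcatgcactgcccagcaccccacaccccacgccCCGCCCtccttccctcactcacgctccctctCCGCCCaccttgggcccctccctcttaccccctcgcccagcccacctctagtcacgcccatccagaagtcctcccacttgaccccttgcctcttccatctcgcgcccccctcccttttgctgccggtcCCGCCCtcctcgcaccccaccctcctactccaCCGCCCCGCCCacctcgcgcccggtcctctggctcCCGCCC
Col4a5: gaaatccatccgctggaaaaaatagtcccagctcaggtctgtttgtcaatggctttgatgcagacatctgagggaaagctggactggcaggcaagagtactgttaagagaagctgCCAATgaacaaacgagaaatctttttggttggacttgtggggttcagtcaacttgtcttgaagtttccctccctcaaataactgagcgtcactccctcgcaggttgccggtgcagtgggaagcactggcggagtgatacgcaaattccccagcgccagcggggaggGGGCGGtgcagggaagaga
Col4a6: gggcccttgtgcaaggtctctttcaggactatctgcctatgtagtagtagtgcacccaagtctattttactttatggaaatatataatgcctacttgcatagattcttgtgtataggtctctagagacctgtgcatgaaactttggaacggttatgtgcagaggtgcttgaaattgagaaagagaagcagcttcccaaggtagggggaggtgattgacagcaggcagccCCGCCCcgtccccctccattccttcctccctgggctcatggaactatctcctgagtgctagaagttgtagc
Col25a1: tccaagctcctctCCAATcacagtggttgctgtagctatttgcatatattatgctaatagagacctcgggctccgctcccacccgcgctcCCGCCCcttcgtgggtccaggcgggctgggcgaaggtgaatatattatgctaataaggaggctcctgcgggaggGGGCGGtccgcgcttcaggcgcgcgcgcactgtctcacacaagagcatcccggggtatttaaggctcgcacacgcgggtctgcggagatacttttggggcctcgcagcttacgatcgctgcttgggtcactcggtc
Col7a1: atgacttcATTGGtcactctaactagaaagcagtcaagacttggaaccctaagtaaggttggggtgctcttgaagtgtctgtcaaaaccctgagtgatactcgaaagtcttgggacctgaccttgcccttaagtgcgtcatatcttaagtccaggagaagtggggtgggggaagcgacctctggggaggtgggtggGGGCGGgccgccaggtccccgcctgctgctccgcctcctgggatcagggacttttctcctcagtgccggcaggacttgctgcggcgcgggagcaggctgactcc
Col4a1: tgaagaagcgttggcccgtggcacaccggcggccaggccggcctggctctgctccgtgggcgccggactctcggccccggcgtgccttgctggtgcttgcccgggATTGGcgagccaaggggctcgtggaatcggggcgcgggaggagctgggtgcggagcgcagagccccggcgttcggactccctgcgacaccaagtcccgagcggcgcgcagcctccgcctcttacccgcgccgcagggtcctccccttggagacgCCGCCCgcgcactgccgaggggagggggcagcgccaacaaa

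The window of Lamc1 held 6 GC boxes, a neighbouring pair of which share 1 base, whereas the window of Col25a1 held 2 and the other printed windows 1 each. None of the printed windows held the TATA box. The CCAAT box was found once each in the windows of Col4a1, Col4a5, Col25a1 and Col7a1 and was not found in those of Lamc1 and Col4a6. Over all 55 members, 16.4% of promoters held a TATA box, 34.5% a CCAAT box and 52.7% a GC box, beside 13.2%, 40.0% and 42.6% of the promoters of the 21571 protein-coding genes listed. CpG dinucleotides ranged from 3 in the window of Col4a6 to 37 in that of Col4a1, with a median of 11 both over the members and over all 21571 promoters. These are letter matches and do not show that a factor binds.

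Total counts per library were 63460940 to 103462414, of which the members took 0.039% to 0.0469%. Neuronal markers summed to 4340 to 5960 CPM (counts per 1e+06 counts of a library, its total adjusted by the trimmed mean of M values, TMM) and astrocyte markers to 3070 to 4040 CPM, so the labelled tissue carried its defining genes. The astrocyte sums overlapped between ages, although 8 of these 12 genes passed in the higher direction at 24m and 1 in the lower (75% called, against 43.6% of all genes tested; median 0.97 on the log2 scale). Replicate 1 of 24m was the deepest library and also stood apart, with a mean Spearman rho of 0.979 to the libraries of its own age and of 0.978 to those of the other age. Values without this library are given beside the members whose call it decides.

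All 55 members passed the filter of more than 5 counts in at least 4 libraries. A gene was called changed at an adjusted p of at most 0.05 and an absolute log2 fold change of at least 0.58, from the quasi-likelihood test of edgeR with Benjamini-Hochberg adjustment over all 16730 genes tested; adjusted p-values below come from that test, except those of the quantile setting, which come from DESeq2 on quantile-normalised counts, and errors of log2 fold changes are standard errors. Of the members, 9 were higher and 7 lower at 24m, together 29.1%, against 43.6% of all genes tested (25.3% higher and 18.3% lower). By adjusted p alone 29 members (52.7%) passed, against 62.6% of all genes. The 4 libraries of one age lay entirely above those of the other in 26 members, 13 of them with 24m above and 13 with 24m below, while this held for 55.2% of all genes (28.4% above and 26.8% below). By each of these counts the share of members was below that of all genes, but for calls this turned once the trend of counts over gene length was removed by a smoothed offset, where 40% of the members and 38.5% of all genes were called. With the length and GC trends removed together the members were below again (36.4% against 38.5%). The split of 9 higher and 7 lower depended on scaling: it was 14 and 3 with library totals alone, which moved the median of all genes by 0.21 on the log2 scale, 5 and 15 with DESeq2 on quantile-normalised counts, and 5 and 17 with that length trend removed. Without 24m replicate 1 it was 11 and 7, or 32.7% of the members against 49.8% of all genes. In bulk tissue, fewer cells of a type and less RNA per cell cannot be told apart.

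Calls were counted by class, and the difference between classes was not tested. Of the 11 fibrillar collagens, 0 were called higher and 1 lower, 3 passed the adjusted p, and the median log2 fold change was -0.11. These 9.09% called and 27.3% past the adjusted p compare with 43.6% and 62.6% of all genes. Of the 19 basement membrane genes, 5 were higher and 0 lower (median 0.12). These 26.3% were close to the 25.3% of all genes called higher, but below the 43.6% called in either direction. Of all genes, 18.3% were called lower. The counts of 0 from edgeR were also 0 by DESeq2, with 1 fibrillar gene higher and 4 basement membrane genes lower at an unadjusted p under 0.05, and DESeq2 on quantile-normalised counts called those 2 groups 0 and 4 times. Of the 25 other collagens, 4 were higher and 6 lower (40% called against 43.6% of all genes, median -0.13). The median of all genes tested was -0.0034, so each class lay within 0.13 of it. The range was widest in the other collagens, from -1.63 to 2.57, against -0.54 to 1.08 in the basement membrane genes and -1.12 to 0.27 in the fibrillar collagens. The median of the fibrillar class was above zero with library totals alone (0.1), and that of the basement membrane class was below zero under the quantile setting (-0.12), with the length trend removed (-0.23), with a filter at a mean of 1 CPM (-0.1) and without 6m replicate 1 (-0.03) or 2 (-0.05). Without 24m replicate 1 it was 0.26.

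**Figure D1:**
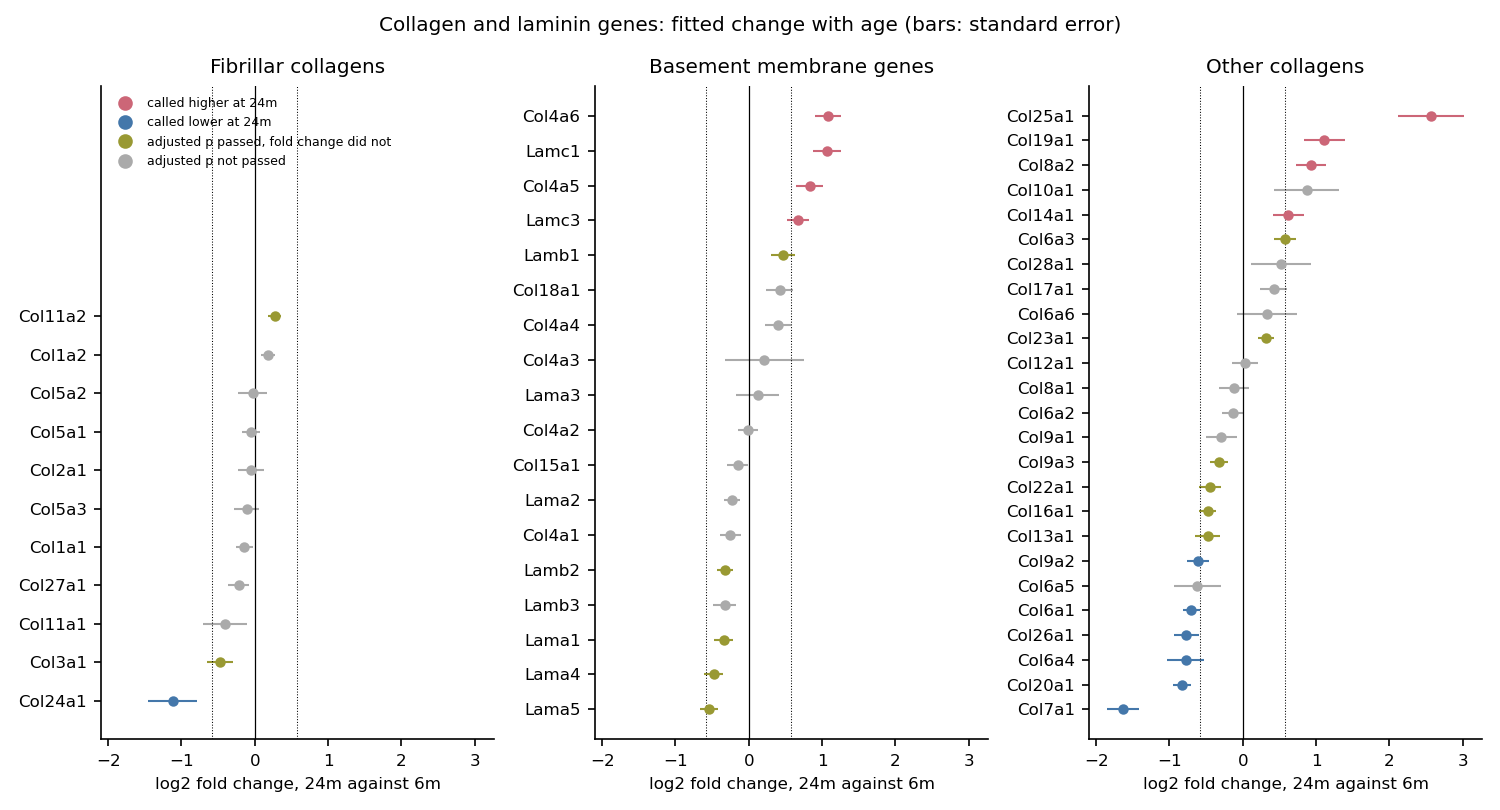
Log2 fold change of collagen and laminin genes (24m against 6m, x axis) with its standard error (bars), in 3 panels by class and sorted by value; dotted lines mark 0.58 and -0.58. Col24a1 is the one fibrillar collagen past a dotted line, the called basement membrane genes all lie to the right, and the other collagens spread from -1.63 (Col7a1) to 2.57 (Col25a1).

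Summed over its members, the basement membrane class amounted to 199 to 222 CPM at 6m and 200 to 223 CPM at 24m. The fibrillar class summed to 62.3 to 71.3 CPM at 6m and 63 to 72.7 CPM at 24m. Both pairs of ranges overlapped on this TMM scale, while with library totals alone the fibrillar sums were higher in each 24m library (57.1 to 65.3 against 69 to 79.9). The other collagens summed to 158 to 175 CPM at 6m and 129 to 139 CPM at 24m, and here every 24m library lay below every 6m library. With library totals alone, a scaling of the sums added after seeing the data, these overlapped (148 to 160 and 138 to 153). The largest contributors to that sum were Col9a2, Col9a3, Col6a1, Col6a2 and Col16a1, and their 24m means were all below their 6m means.

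Markers of the cells that make much of the brain's matrix were read beside the members, against 43.6% of all genes called. Endothelial markers (12 genes) summed to 99.2 to 141 CPM at 6m and 62.8 to 94.1 CPM at 24m, with 2 genes called higher and 4 lower (50%). Mural cell markers (12 genes) summed to 199 to 264 CPM at 6m and 146 to 184 CPM at 24m, with 3 higher and 5 lower (66.7%). The higher genes were Pdgfrb, Abcc9 and Notch3, and the lower ones Kcnj8, Higd1b, Acta2, Tagln and Cnn1. Both sums were lower in every 24m library on the TMM scale, with factors of 0.887 to 0.957 at 6m and 1 to 1.13 at 24m. With library totals alone they overlapped between ages. Each also rested on its most abundant gene and overlapped on the TMM scale without it, a sum added after seeing the data: 64.3 to 88.4 and 46.4 to 70.7 CPM without Ly6c1, and 75.1 to 101 and 65.3 to 83.5 CPM without Vtn. Leptomeningeal fibroblast markers (17 genes) also summed lower at 24m (2700 to 3550 against 1460 to 2340 CPM), a sum dominated by the prostaglandin D synthase gene Ptgds, without which the ages overlapped (347 to 416 and 242 to 359 CPM), with 4 members of the list called higher and 3 lower (41.2%). Choroid plexus markers (12 genes; 2040 to 3560 and 1210 to 2600 CPM; 3 higher and 1 lower, 33.3%) and bone and cartilage markers (12 genes, 10 tested; 19.1 to 22.9 and 18.4 to 27.1 CPM; 1 higher and 2 lower, 30% of those tested) overlapped between ages. No marker of these lists was at 0 in every library. The part of these marker values, those of astrocytes included, in the collagen and laminin results was not tested.

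**Figure D2:**
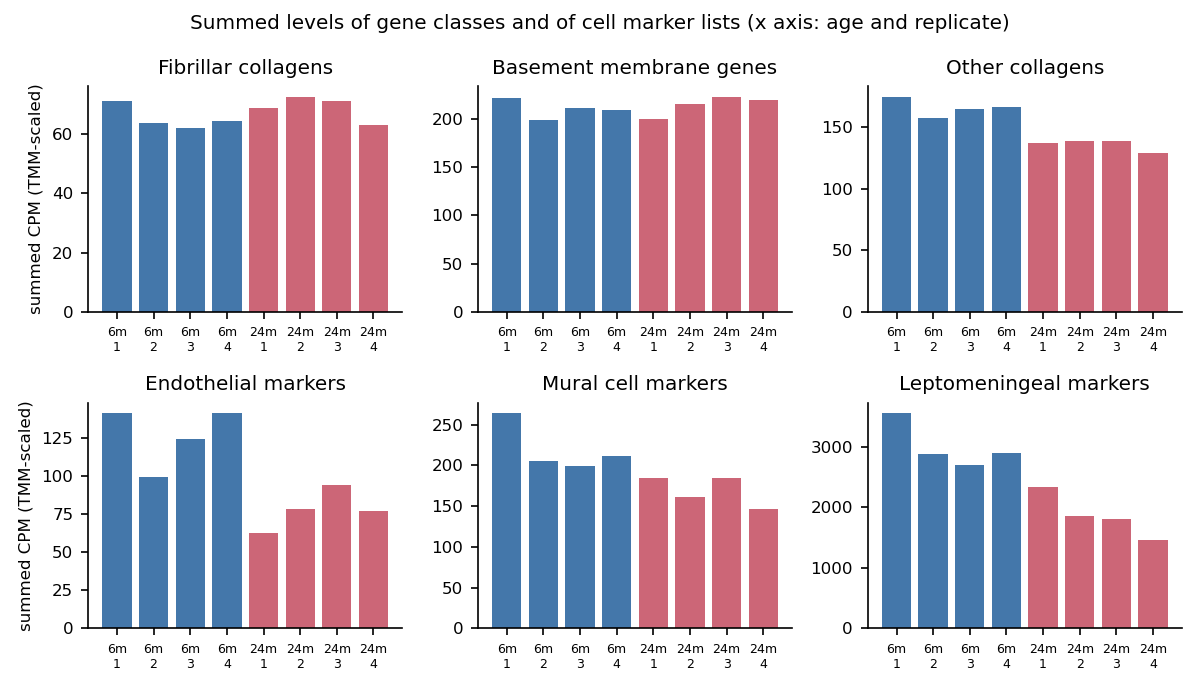
Summed CPM (TMM-scaled) of the 3 gene classes (upper row) and of the endothelial, mural and leptomeningeal marker lists (lower row) in each library (x axis: age and replicate; blue, 6m; red, 24m). The fibrillar and basement membrane sums overlap between ages, whereas the other collagens and the 3 marker lists are lower in each 24m library on this scale.

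The laminin gamma chain genes Lamc1 and Lamc3 were higher at 24m. Lamc1, the gamma chain of nearly all vascular and glial laminins (ENSMUSG00000026478, chr1:153094597-153208774), measured 9.78, 11.6, 10.3 and 9.53 CPM in 6m replicates 1 to 4, and 13.8, 22, 23.9 and 27.2 CPM in 24m replicates 1 to 4. Every 24m library exceeded every 6m library, with replicate 1 lowest. The change was 2.11-fold (log2 fold change 1.07 ± 0.19, adjusted p = 0.000997), and 1.26 on the log2 scale without that replicate.

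Lamc3 (ENSMUSG00000026840, chr2:31777258-31839117), a gamma chain known from the cortex and the retina, measured 2.79, 2.9, 2.6 and 3.56 CPM at 6m and 4.34, 5.22, 5.19 and 4.06 CPM at 24m. All 24m libraries lay above all 6m libraries. The change was 1.59-fold (log2 fold change 0.67 ± 0.15, adjusted p = 0.00317). The call was lost when the length trend was removed (0.31 on the log2 scale) and under the quantile setting (0.32), whereas that of Lamc1 was kept in all 20 alternatives tried, with log2 fold changes from 0.61 to 1.3 and 0.63 with the length trend removed.

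The laminin alpha chains carry the binding sites for integrins and dystroglycan. None of the 5 was called by edgeR or by DESeq2, but 3 had an unadjusted p under 0.05 and passed the adjusted p, all with values below those of 6m, and DESeq2 on quantile-normalised counts called 3 lower. Lama5, the alpha chain of the mature endothelial basement membrane, measured 18.5, 13.9, 16.5 and 15.5 CPM at 6m and 9.77, 11.3, 12 and 11.2 CPM at 24m. Lama4, the other endothelial alpha chain, measured 7.79, 6.73, 5.99 and 6.35 CPM at 6m and 4.63, 4.73, 4.37 and 5.5 CPM at 24m. For Lama5 and Lama4, as for Lama1 (5.06 to 6.89 against 4.15 to 4.81 CPM), all 24m libraries lay below all 6m libraries. Their log2 fold changes were -0.54 ± 0.12 (adjusted p = 0.00284), -0.48 ± 0.13 (0.00811) and -0.34 ± 0.13 (0.0382). Lama5 passed the fold threshold without 6m replicate 2 (-0.61) or without 24m replicate 3 (-0.58). With library totals alone none of these 3 passed the adjusted p (-0.12, adjusted p = 0.456 for Lama1; -0.26, 0.127 for Lama4; -0.32, 0.0526 for Lama5), whereas all 3 were called lower with the length trend removed (-0.71, -1.02 and -0.97). Lama2, the alpha chain made by astrocytes and mural cells, did not pass (-0.23 ± 0.11, adjusted p = 0.094) but was called lower with the length trend removed (-0.80, adjusted p = 0.000809). Lama3 did not pass either (0.12 ± 0.29, adjusted p = 0.729).

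No laminin beta chain was called by edgeR or by DESeq2, with 1 higher and 1 lower at an unadjusted p under 0.05, and 1 was called lower by DESeq2 on quantile-normalised counts. Lamb2 was the member with the highest CPM, at 60.3 ± 4.89 CPM at 6m and 48.3 ± 6.02 CPM at 24m (SD, n = 4). It met the adjusted p threshold alone (log2 fold change -0.32 ± 0.11, adjusted p = 0.0243), and not with library totals alone (-0.11, adjusted p = 0.296) or the GC trend removed (-0.14, adjusted p = 0.109). Lamb1, a beta chain that pairs with Lamc1, measured 12.9, 13.2, 13.9 and 12.3 CPM at 6m and 12.4, 19.4, 18.3 and 22.3 CPM at 24m. The ages overlapped only through 24m replicate 1, which lay within the 6m range. The log2 fold change of Lamb1 was 0.47 ± 0.16 (adjusted p = 0.0285), and without that library it was 0.63 (adjusted p = 0.000178), past the fold threshold, as with library totals alone (0.70, adjusted p = 0.0119). With the length trend removed it was 0.04 (adjusted p = 0.758), and under the quantile setting 0.24 (adjusted p = 0.137). The adjusted p was over 0.05 when any 1 of 6 other libraries was left out (0.0556 to 0.0732), the exception being 6m replicate 3 (0.0471). Lamb3 did not pass (-0.33 ± 0.16, adjusted p = 0.0872), but was called lower under the quantile setting (-0.66, adjusted p = 0.00299) and with the length trend removed (-0.62, adjusted p = 0.0146).

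Ratios of the counts of 2 chains within one library need no scaling between libraries, though they still depend on the length and sequence of each gene. The pairs were chosen after the values were seen, and the ratios are given as a description with no test. Lamc1 counts over Lama5 counts were 0.528, 0.832, 0.629 and 0.616 at 6m, and 1.41, 1.95, 1.99 and 2.43 at 24m. The ratio was therefore higher in each 24m library than in any 6m library. The canonical transcripts of Lamc1 and Lama5 differ in length (7935 and 11448 bases), so a ratio of 1 need not mark equal levels. Lamc1 over Lamb1 was 0.788 ± 0.0593 at 6m and 1.19 ± 0.0905 at 24m (mean ± SD, n = 4 per age), also with no overlap. Lamb1 over Lamb2 was 0.218 ± 0.0209 at 6m and 0.387 ± 0.131 at 24m, and overlapped through 24m replicate 1 (0.222).

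**Figure D3:**
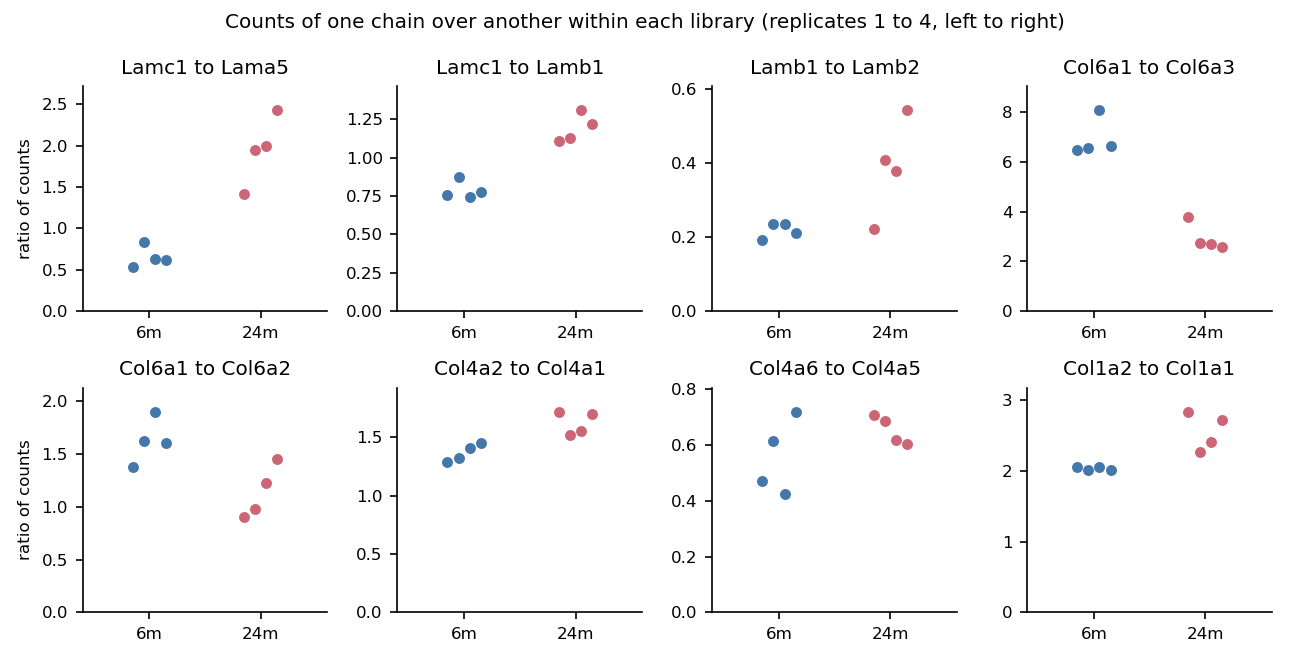
Counts of one chain gene divided by those of another in each library (y axis, no unit; points left to right are replicates 1 to 4; blue, 6m; red, 24m). Lamc1 to Lama5 is 0.528 to 0.832 at 6m and 1.41 to 2.43 at 24m, Col6a1 to Col6a3 is lower in each 24m library, and Lamb1 to Lamb2, Col6a1 to Col6a2 and Col4a6 to Col4a5 overlap between ages.

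Type IV collagen is the scaffold of every basement membrane, and its 6 genes lie as 3 head-to-head pairs. Col4a1 and Col4a2, the chains of vascular type IV collagen, did not pass the test. Col4a1 measured 18.3 ± 1.56 CPM at 6m and 15.4 ± 2.83 CPM at 24m (log2 fold change -0.25 ± 0.14, adjusted p = 0.152), and Col4a2 measured 25 ± 3.21 and 24.9 ± 3.9 CPM (-0.01 ± 0.14, adjusted p = 0.962). The sign of Col4a2 differed between settings. Col4a1 was at -0.49 with the length trend removed and -0.45 under the quantile setting. Among the alternatives its adjusted p fell under 0.05, but its fold change never reached the threshold. The annotated starts of this pair lie 317 bases apart with overlapping gene bodies on opposite strands (chr8:11248423-11362826 and chr8:11362471-11499287), and whether the counting used strand was not stated. Col4a2 counts over Col4a1 counts were 1.29, 1.32, 1.41 and 1.45 at 6m and 1.72, 1.52, 1.55 and 1.7 at 24m, higher in each 24m library.

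Col4a5 and Col4a6, the X-linked pair, were both higher at 24m. Col4a5 (ENSMUSG00000031274, chrX:140258354-140472231) measured 1.07, 1.17, 1.18 and 0.757 CPM at 6m and 1.49, 1.86, 1.98 and 2.09 CPM at 24m. Col4a6 (ENSMUSG00000031273, chrX:139948399-140257072) measured 0.503, 0.721, 0.498 and 0.545 CPM at 6m and 1.05, 1.27, 1.22 and 1.26 CPM at 24m, from 30 to 51 counts per library at 6m and 102 to 110 at 24m. Neither gene overlapped between ages. The changes were 1.77-fold for Col4a5 (log2 fold change 0.83 ± 0.19, adjusted p = 0.00394) and 2.11-fold for Col4a6 (1.08 ± 0.18, adjusted p = 0.000764). The gene starts lie 1282 bases apart, and the ratio of Col4a6 to Col4a5 counts overlapped between ages (0.557 ± 0.136 and 0.654 ± 0.0502). The call of Col4a5 was lost with the length trend removed (0.47) and under the quantile setting (0.58, just under the threshold before rounding), and that of Col4a6 in no alternative that tested it.

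The third pair, Col4a3 and Col4a4, which serve the glomerular basement membrane, was near the detection limit. Col4a4 measured 0.305 to 0.415 CPM at 6m and 0.454 to 0.504 CPM at 24m, higher in each 24m library, but did not pass the test (0.40 ± 0.18, adjusted p = 0.08) other than with library totals alone (0.62). Col4a3 had 2 to 17 counts per library. Of the multiplexins, basement membrane collagens whose C-terminal fragments include endostatin, Col18a1 measured 19.4 ± 4.32 CPM at 6m and 25.9 ± 4.6 CPM at 24m (0.42 ± 0.18, adjusted p = 0.0612) and Col15a1 3.54 ± 0.408 and 3.18 ± 0.384 CPM (-0.15 ± 0.14, adjusted p = 0.361). Neither passed, but Col18a1 was called higher with library totals alone (0.63, adjusted p = 0.00582) and after removal of the GC trend (0.62, adjusted p = 0.00209).

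**Figure D4:**
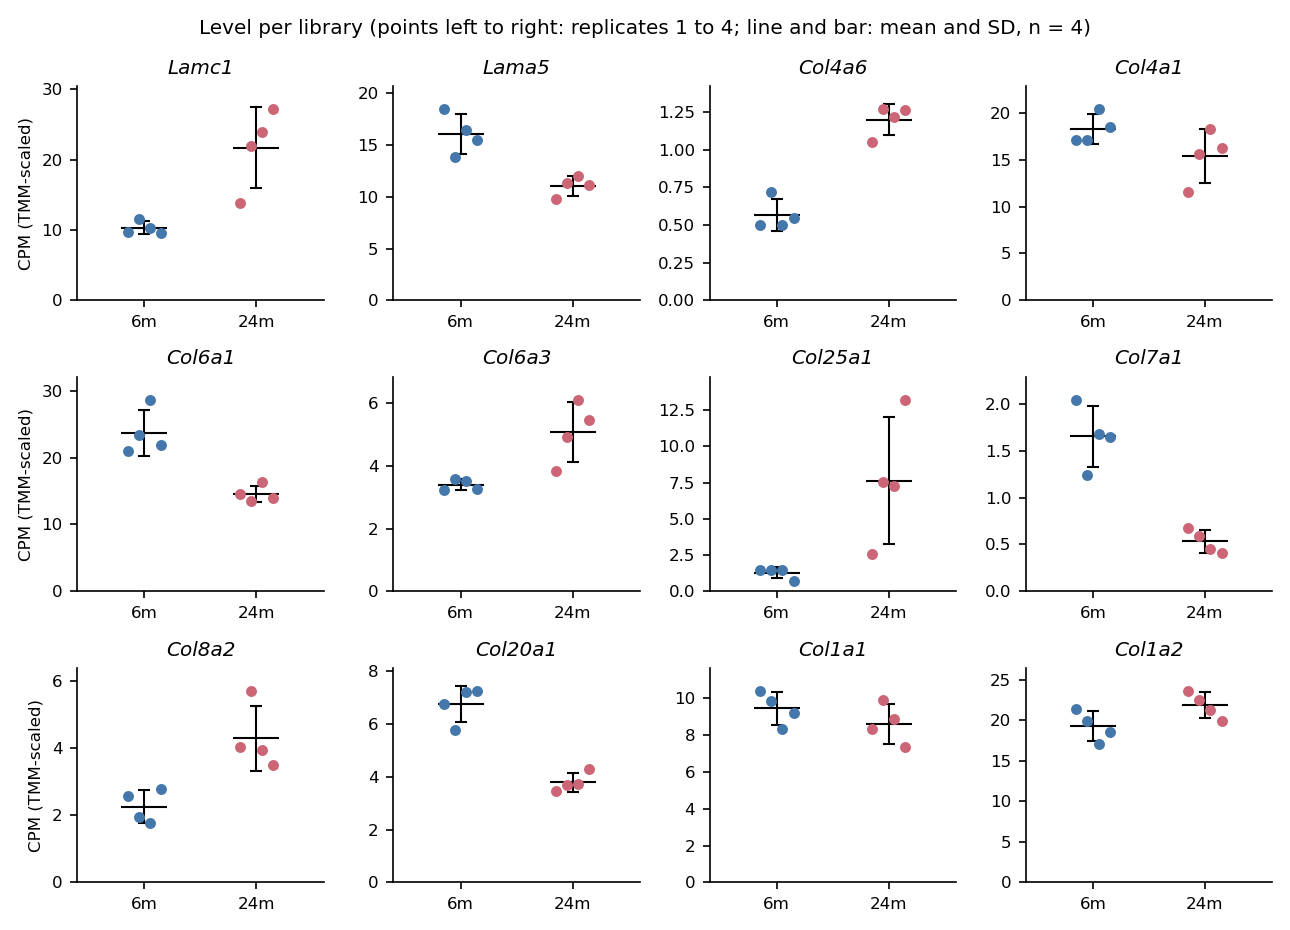
CPM (TMM-scaled, y axis from 0) of 12 members in each library (points left to right: replicates 1 to 4; line and bar: mean and SD, n = 4; blue, 6m; red, 24m). Lamc1, Col4a6, Col8a2, Col25a1 and Col6a3 are higher and Lama5, Col6a1, Col7a1 and Col20a1 lower in each 24m library, whereas Col4a1, Col1a1 and Col1a2 overlap between ages.

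The fibrillar collagens held the fewest calls. Col1a1 and Col1a2, which together form type I collagen, the main collagen of the meninges, measured 9.45 ± 0.879 and 19.3 ± 1.86 CPM at 6m and 8.6 ± 1.07 and 21.8 ± 1.58 CPM at 24m (SD, n = 4). Neither passed the test (log2 fold change -0.14 ± 0.12, adjusted p = 0.357, and 0.18 ± 0.10, adjusted p = 0.139), and both changed sign under some scalings. Counts of Col1a2 over Col1a1 were 2.06, 2.02, 2.05 and 2.01 at 6m, and 2.84, 2.27, 2.41 and 2.72 at 24m. This ratio varied little at 6m and was higher in each 24m library. Type I collagen usually holds more alpha1 than alpha2 chains, whereas per kilobase Col1a2 was above Col1a1, at 1.62 against 1.37 RPKM (CPM per kilobase) over the exonic length and 3.83 against 1.52 RPKM over the canonical transcript.

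Col11a2, a minor fibrillar chain, met the adjusted p threshold alone, at 18.8 ± 1.1 CPM at 6m and 22.6 ± 1.74 CPM at 24m (0.27 ± 0.09, adjusted p = 0.027). It was 0.03 with the length trend removed (adjusted p = 0.823) and 0.11 under the quantile setting (adjusted p = 0.347). Col3a1, the reticular collagen of vessel walls, measured 3.43, 2.45, 2.44 and 2.04 CPM at 6m and 1.99, 2.1, 1.69 and 1.7 CPM at 24m. It passed only the adjusted p as well (-0.47 ± 0.18, adjusted p = 0.0426), and its ages overlapped. With the length trend removed it was called lower (-0.85, adjusted p = 0.00398), and with library totals alone it did not pass (-0.26, adjusted p = 0.243). The only fibrillar gene called was Col24a1, lower at 24m (-1.12 ± 0.33, adjusted p = 0.0136), from 10 to 20 counts per library at 6m and 6 to 13 at 24m. This was among the lowest levels of any member. The other 6 fibrillar genes, Col2a1, Col5a1, Col5a2, Col5a3, Col11a1 and Col27a1, did not pass, but Col11a1 (-0.89) and Col27a1 (-0.7) were called lower with the length trend removed.

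Within type VI collagen, whose beaded filaments lie between basement membranes and the surrounding matrix, the chain genes differed in their values, and of the main chains Col6a1 alone was called. Col6a1 (ENSMUSG00000001119, chr10:76543440-76562283) measured 21, 23.4, 28.6 and 21.8 CPM at 6m and 14.6, 13.5, 16.3 and 14 CPM at 24m. Col6a2, its neighbour on chromosome 10, measured 15.2, 14.5, 15 and 13.6 CPM at 6m and 16.1, 13.9, 13.4 and 9.71 CPM at 24m. Col6a3 measured 3.23, 3.58, 3.53 and 3.27 CPM at 6m and 3.83, 4.93, 6.1 and 5.47 CPM at 24m. Col6a1 was thus lower in each 24m library, Col6a3 was above its 6m range in each, and Col6a2 overlapped.

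The log2 fold changes were -0.70 ± 0.12 for Col6a1 (adjusted p = 0.000842), -0.13 ± 0.15 for Col6a2 (adjusted p = 0.443) and 0.58 ± 0.15 for Col6a3 (adjusted p = 0.00819), the last of which lay just under the fold threshold before rounding. Col6a3 was past it without 24m replicate 1 (0.71), without 6m replicate 2 or 3 (0.6 each) and without 24m replicate 2 (0.59), as well as with library totals alone (0.8) and the GC trend removed (0.68). It was 0.12 with the length trend removed (adjusted p = 0.377) and 0.22 under the quantile setting (adjusted p = 0.124). The call of Col6a1 was lost with library totals alone (-0.48). Counts of Col6a1 over Col6a3 were 6.5, 6.55, 8.09 and 6.66 at 6m and 3.8, 2.74, 2.68 and 2.57 at 24m, with no overlap. Of the tandem chains that can replace Col6a3, Col6a4 was lower at 24m (2.27 ± 0.651 against 1.33 ± 0.288 CPM; -0.78 ± 0.25, adjusted p = 0.0196), with overlapping ages and adjusted p-values of 0.0582 without 6m replicate 1 and 0.0597 without 6m replicate 2, and 0.0643 with library totals alone. Col6a5 (-0.62 ± 0.32, adjusted p = 0.117) and Col6a6 (0.33 ± 0.41, adjusted p = 0.501) did not pass, but Col6a5 was called lower with the length trend removed (-0.98) and without 24m replicate 2.

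Transmembrane collagens included the member with the greatest change. Col25a1 (ENSMUSG00000058897, chr3:129925150-130393532) encodes a neuronal membrane collagen whose shed ectodomain is found in amyloid plaques. It measured 1.45, 1.5, 1.46 and 0.726 CPM at 6m and 2.55, 7.54, 7.28 and 13.2 CPM at 24m. All 24m libraries were above all 6m libraries, but replicates 1 and 4 of 24m differed by more than the whole 6m range. The change was 5.94-fold (log2 fold change 2.57 ± 0.45, adjusted p = 0.000962), 2.88 on the log2 scale without 24m replicate 1 and 2.17 without 24m replicate 4. Neuronal markers (12 genes, 4 higher and 0 lower, 33.3% called against 43.6% of all genes) summed higher at 24m, to 5520 to 5960 CPM against 4340 to 4890 CPM, and the part of this in the change of Col25a1 was not tested. Of its relatives, Col23a1 passed the adjusted p only (0.32 ± 0.11, adjusted p = 0.0261), as did Col13a1, a collagen of the neuromuscular synapse, in the lower direction (-0.48 ± 0.17, adjusted p = 0.0323), and Col17a1 did not pass (0.42 ± 0.18, adjusted p = 0.0679). Under the quantile setting Col23a1 was at -0.02 (adjusted p = 0.902) and Col13a1 was called lower (-0.78), and Col17a1 was called higher with library totals alone (0.64).

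Col7a1, which forms the anchoring fibrils below epithelia, was the member with the greatest decrease. It measured 2.04, 1.24, 1.68 and 1.65 CPM at 6m and 0.675, 0.587, 0.456 and 0.413 CPM at 24m, a 3.09-fold lower level with no overlap (log2 fold change -1.63 ± 0.22, adjusted p = 0.000272). Col26a1 was also lower in each 24m library, at 4.57 ± 0.374 against 2.67 ± 0.611 CPM (-0.77 ± 0.17, adjusted p = 0.0032). Its call was lost with library totals alone (-0.56). Among network collagens, Col8a2, a chain of the type VIII collagen of vessels and of the corneal endothelium, measured 2.56, 1.94, 1.76 and 2.77 CPM at 6m and 4.03, 5.7, 3.93 and 3.5 CPM at 24m. It was higher with no overlap (0.93 ± 0.20, adjusted p = 0.0032), whereas its partner Col8a1 overlapped and did not pass (-0.12 ± 0.20, adjusted p = 0.599).

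The FACIT collagens, which bind to the surface of fibrils, had 2 higher and 2 lower genes of 9, and these 44.4% were close to the 43.6% of all genes called. Col20a1 measured 6.77, 5.77, 7.22 and 7.25 CPM at 6m and 3.46, 3.68, 3.71 and 4.3 CPM at 24m, a decrease with no overlap (-0.83 ± 0.12, adjusted p = 0.000435). Col9a2, a chain of type IX collagen known from cartilage, measured 36, 31.4, 29.4 and 35.1 CPM at 6m and 28.6, 20, 19.9 and 17.7 CPM at 24m. It was lower as well (-0.61 ± 0.15, adjusted p = 0.00576), but the call was lost with library totals alone (-0.4), with the length trend removed (-0.38), with the GC trend removed (-0.35), and without 6m replicate 1 (-0.57) or 4 (-0.58) and without 24m replicate 2 (-0.57), 3 (-0.57) or 4 (-0.53). Col9a3 passed the adjusted p only (38.9 ± 5.24 against 31.2 ± 3.15 CPM; -0.32 ± 0.12, adjusted p = 0.0397), but not with library totals alone (-0.09, adjusted p = 0.45), and Col9a1 did not pass.

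Col19a1, made by subsets of neurons, and Col14a1 were the FACIT genes called higher, from 22 to 40 and 33 to 50 counts per library at 6m and 65 to 117 and 67 to 96 at 24m. Their log2 fold changes were 1.11 ± 0.28 (adjusted p = 0.00606) and 0.62 ± 0.21 (adjusted p = 0.026). That of Col19a1 was 0.63 with the length trend removed and 0.58 with the length and GC trends removed, where the call was lost. The call of Col14a1 was lost without 6m replicate 1 (adjusted p = 0.0652), 2 (0.0712) or 3 (0.0583) and without 24m replicate 4 (0.0725), and also with the length trend removed (0.108) and under the quantile setting (0.115), and by its fold change with the GC trend removed (0.54). Col16a1 (16.6 ± 1.34 against 11.9 ± 1.53 CPM; -0.48 ± 0.12, adjusted p = 0.006) and Col22a1 (2.25 ± 0.305 against 1.66 ± 0.124 CPM; -0.44 ± 0.15, adjusted p = 0.0233) were lower in each 24m library and passed the adjusted p only. Neither passed it with library totals alone (-0.26, adjusted p = 0.141, and -0.23, adjusted p = 0.216), and both were called lower under the quantile setting (-0.71 and -0.72) and with the length trend removed (-0.70 and -0.79).

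Levels can be compared between genes only per length. Per kilobase of exonic length, Lamb2 (8.93 RPKM, the mean of all libraries on the TMM scale), Col9a2 (8.8) and Col9a3 (7.75) were the most abundant members, followed by Col4a2 (3.47), Col6a1 (3.28) and Col18a1 (3.21). In the fibrillar class Col11a2 (2.78), Col1a2 (1.62) and Col1a1 (1.37) led. The order differed between ages: Col9a2 (10.6) was above Lamb2 (9.91) and Col6a1 (4.05) above Col4a2 (3.48) at 6m, whereas at 24m Lamb2 (7.94) came first and Col18a1 (3.67) was above Col4a2 (3.46) and Col6a1 (2.5). It also depended on the length used: per kilobase of the canonical transcript, Col9a3 (12.3) came first and Col1a2 (3.83) passed Col11a2 (3.26). Over the exonic length the members that changed most were not the abundant ones, as Col25a1 had 0.342 and Col7a1 0.106 RPKM. Over the canonical transcript these were 1.7 and 0.118 RPKM.

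Genes of the rest of the collagen and laminin pathway were read from lists, for which, as for the members, counts and medians are given with no test of the list. Of 19 genes of collagen biosynthesis, 1 was higher and 3 lower (median -0.26 on the log2 scale), or 21.1% called against 43.6% of all genes tested. Ppib, a prolyl isomerase of the endoplasmic reticulum, measured 213 to 253 CPM at 6m and 102 to 171 CPM at 24m (-0.86 ± 0.15, adjusted p = 0.000853), and P3h1, the prolyl 3-hydroxylase that works in a complex with it, 13.3 to 15.7 and 7.07 to 9.37 CPM (-0.74 ± 0.12, adjusted p = 0.000609). Neither overlapped between ages. Crtap, the third subunit of that complex, and the collagen chaperone gene Serpinh1 passed the adjusted p only (-0.45 and -0.47), and both were named after their values were seen. The gene called higher was Colgalt2, a collagen galactosyltransferase (0.81 ± 0.19, adjusted p = 0.00442).

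Of 14 genes of procollagen processing and crosslinking, 3 were higher and 0 lower (21.4% called, median 0). They were the procollagen N-proteinase genes Adamts3 (1.29 ± 0.30, adjusted p = 0.00459) and Adamts2 (0.77 ± 0.11, adjusted p = 0.00033) and the tolloid-like protease gene Tll1 (0.92 ± 0.31, adjusted p = 0.0255), whose ages overlapped. Of 14 receptors tested, 4 were higher and 0 lower (28.6% called, median 0.32), and this share too was below that of all genes. Dag1, which encodes dystroglycan, the laminin receptor of astrocyte end-feet, measured 10.2 to 15.4 CPM at 6m and 38.4 to 69.1 CPM at 24m (2.14 ± 0.21, adjusted p = 5.6e-05). Itga6, an alpha subunit of laminin-binding integrins, rose as well (1.45 to 1.89 against 3.47 to 7.47 CPM; 1.69 ± 0.22, adjusted p = 0.000228).

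Of 14 matrix proteases and inhibitors tested, 7 were higher and 1 lower (57.1% called against 43.6% of all genes, median 0.55), and among them the metalloproteinase inhibitor genes Timp3 (1.56 ± 0.20, adjusted p = 0.000209) and Timp2 (1.10 ± 0.10, adjusted p = 4.99e-05) were higher. The gene called lower was of the same family, Timp4 (127 against 78.6 CPM; -0.69 ± 0.19, adjusted p = 0.0101), with overlapping ages, and it was named after its values were seen. Of 13 basement membrane partners, 6 were higher and 0 lower (46.2% called, close to the 43.6% of all genes, median 0.39). Nid1, which encodes the nidogen that links the laminin gamma chain to type IV collagen, measured 0.378 to 0.846 CPM at 6m and 1.35 to 3.07 CPM at 24m (2.07 ± 0.31, adjusted p = 0.000453), and Npnt, which encodes the integrin ligand nephronectin, 1.66 to 2.67 and 4.23 to 10.3 CPM (1.89 ± 0.27, adjusted p = 0.000337). Small leucine-rich proteoglycans, which regulate fibril assembly, held 2 higher genes and 0 lower of 8 tested (25% called, below all genes), Fmod (0.78 ± 0.17, adjusted p = 0.0027) and Prelp (0.58 ± 0.12, adjusted p = 0.00245). Where a list or the neuronal markers had 0 genes lower by edgeR, DESeq2 also gave 0, and an unadjusted p under 0.05 was found in the lower direction for 3 processing genes, 2 receptors, 0 basement membrane partners, 0 proteoglycans and 2 neuronal markers. DESeq2 on quantile-normalised counts called 1 processing gene, 1 receptor and 1 proteoglycan lower.

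Fold changes were also set against gene length and GC content. Over all 16677 annotated genes tested, log2 fold change and exonic length had a Spearman rho of 0.42, whereas over the 55 members rho was 0.10; the points share the same 8 libraries, and genes are not independent. The median exonic length was 8534 bases over the members and 5768 over all genes tested, and removal of the length trend moved the class medians to -0.39 (fibrillar), -0.23 (basement membrane) and -0.38 (other). With GC content, rho was -0.22 over the members and -0.21 over all genes. Of the 16 calls, 7 were kept in every alternative in which the gene was tested, namely Lamc1, Col4a6, Col8a2 and Col25a1 as higher and Col7a1, Col20a1 and Col24a1 as lower; Col4a6 and Col24a1 were not tested under the 1 CPM filter. Of the 13 members that passed the adjusted p only, 0 kept it in each of the 20 alternatives and 9 were called in at least 1, as were 9 of the 26 that did not pass.

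**Figure D5:**
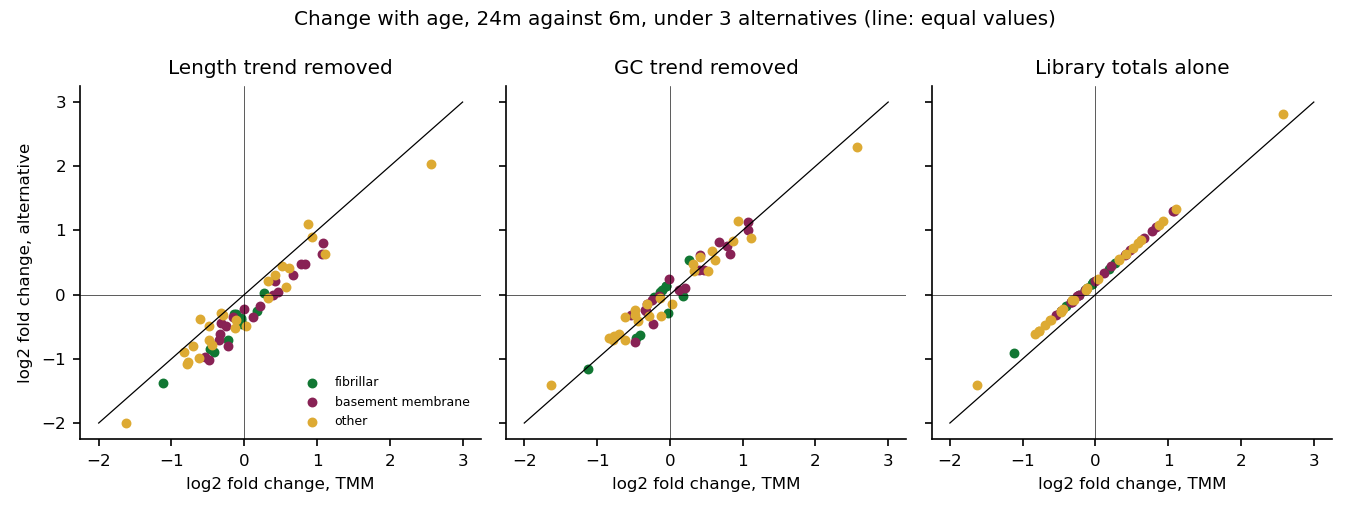
Log2 fold change of the 55 members with TMM scaling (x axis) against that with the length trend removed, the GC trend removed or library totals alone (y axes); the diagonal marks equal values and colours mark the classes. Points lie mostly below the diagonal with the length trend removed, scatter around it with the GC trend removed and lie above it with library totals alone, while Col25a1 stays at the upper right and Col7a1 at the lower left in each.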

How the data were processed

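Poly(A) RNA had been sequenced in pairs of reads from directional libraries. The authors trimmed reads with Trim Galore 0.4.11, aligned them to GRCm39 with HISAT2 2.1.0 (versions from the submitters' processing notes) and counted them per gene with featureCounts, with strand and multimapping settings not given in the sources used here. The deposited table holds raw counts for 8 libraries, with no replicates pooled. Of 22430 genes, 22281 matched the GENCODE annotation, and the other 149 held 0.312% of counts.

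The counts were fitted here with edgeR 4.0.16 (R 4.3.3), with TMM factors and a single term for age, and tested by quasi-likelihood, after a filter of more than 5 counts in at least 4 libraries. The fit was tested on simulated data in which 200 of 16730 genes had a log2 fold change of 1. It recovered 68% of them with 5 false calls, so a gene that was not called may still have changed. No pair of replicates agreed within sampling noise, as chi-square per degree of freedom was 8.18 to 48.3 at 6m. It was 13 to 61.2 among 24m replicates 2 to 4, and 179 to 417 for pairs with 24m replicate 1. CPM and RPKM carry the TMM factors. DESeq2 1.42.0 and limma 3.58.1 served the alternatives.

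One member enters every count but is not reported here by itself. The members and lists were chosen with earlier results of these data known. The naming rule took called members with a mean of at least 1 CPM, the 3 most abundant per class and their partner chains, and 2 called genes per pathway list. Named after their values were seen were Col3a1, Col24a1, Col14a1, Col19a1, Col16a1, Col13a1, Col22a1, Col23a1, Col4a4, Lama1, Lama2, Lama3, Lama4, Lama5, Lamb1 and Lamb3, further members given only as not passing, and the pathway genes P3h1, Crtap, Serpinh1, Adamts2 and Timp4. The marker genes named were also chosen after their values were seen.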

Additional observations from a re-analysis of the deposited data

Results flagged for a closer look

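In each age group of 4 libraries, a member was singled out where the highest or lowest library lay far from the other 3, by Dixon's test at the 95% level; chance gives about 1 in 20 such groups, and 5 of 110 (4.55%) were found. Col25a1 measured 0.726 CPM in 6m replicate 4, below the next value of 1.45 CPM, and this library is on the side away from the 24m values. Lama2 measured 13.2 CPM in 24m replicate 4, above the next value of 11.1 CPM and within the 6m range. Col2a1 measured 1.7 CPM in the same 24m replicate 4, below the next value of 2.31 CPM. Col17a1 measured 1.65 CPM in 6m replicate 1, above the next value of 1.09 CPM, and without that library its change passed both thresholds. Col11a1 measured 1.34 CPM in 6m replicate 3, above the next value of 0.777 CPM. None of Lama2, Col2a1, Col17a1 and Col11a1 was called with all 8 libraries.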

How the results depend on the processing

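Against 9 members called higher and 7 lower, library totals alone gave 14 and 3, DESeq2 on quantile-normalised counts 5 and 15, removal of the length trend 5 and 17, and removal of the length and GC trends together (chosen after seeing the data) 4 and 16. Removal of the length trend with the replicate block called 23 members, 17 of them lower. By adjusted p alone 29 members passed, 16 of them lower. Medians of the fibrillar, basement membrane and other classes were 0.1, 0.34 and 0.07 with totals alone, -0.42, -0.12 and -0.36 under the quantile setting, -0.39, -0.23 and -0.38 with the length trend removed, -0.4, -0.23 and -0.38 with the replicate block added to that, and -0.38, -0.23 and -0.4 with both trends removed. A filter at a mean of 1 CPM gave -0.1 for the basement membrane and -0.39 for the other class. Leaving out each library in turn gave 8 to 11 higher and 5 to 7 lower, and medians of -0.14 to -0.07, -0.05 to 0.31 and -0.21 to -0.11.

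Changes of sign concerned genes that were not called. Col4a2 was at 0.22 with totals alone, 0.003 without a filter, 0.25 with the GC trend removed, 2e-04 after thinning, and -0.08 to 0.11 with a library left out. Col1a1 was at 0.08 with totals alone and 0.04 with the GC trend removed, and Col6a2 at 0.07 with totals alone. Col1a2 was at -0.26 with the length trend removed, -0.28 with the block added, -0.02 with the GC trend removed and -0.3 with both. Col4a4 was at -0.01, -0.02 (block added) and -0.004 (both trends), and Lama3 at -0.35, -0.28 and -0.34, with -0.2 under the quantile setting and -0.03 to 0.45 with a library left out. Col23a1 was at -0.02 under the quantile setting. The cause of these differences was not tested.

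With the replicate number as a block, 9 members were higher and 7 lower, and no call of a member changed, but 24 members in place of 29 passed the adjusted p: Lama1, Col11a2, Col3a1, Col22a1, Col9a3 and Col23a1 lost it (0.0505 to 0.101) and Col18a1 gained it (0.0319). Deviations of same-numbered libraries correlated at 0.271, 0.143, 0.078 and -0.348, and of the 6m libraries only replicate 1 correlated best with its own number, so the numbers were not read as pairs. Of 775 single-gene comparisons with an alternative, 666 kept their direction and side of the thresholds, 37 fell short of the thresholds, 47 newly passed and 25 changed sign.

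Members with at most 20 counts in each library, such as Col24a1 and Col4a3, are limited by counting error, and 12 members had a mean under 1 CPM. The counts of 4 animals per age at 2 ages carry no information on when a change occurred. Shares of reads lost to overlapping genes, among them Col4a1 with Col4a2, are unknown.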

Other observations

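Members at the edge of detection included collagens of cartilage and skin. Col10a1, the collagen of hypertrophic cartilage, had 2, 9, 9 and 4 counts at 6m and 13, 19, 10 and 17 at 24m, higher in each 24m library as a count, though not as CPM (log2 fold change 0.87 ± 0.45, adjusted p = 0.12 by edgeR). Col28a1 had 6, 6, 2 and 2 counts at 6m and 8, 8, 8 and 7 at 24m (0.52 ± 0.41, adjusted p = 0.292 by edgeR). Neither gene passed the test, but Col10a1 was called higher with the length trend removed and the replicate block added.

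Neighbouring members did not always move alike. Col6a1 and Col6a2 lie in tandem on chromosome 10, where Col6a1 alone was called lower. Col9a3, Lama5 and Col20a1 lie within 1 stretch of chromosome 2 (starts at 180239583, 179818166 and 180628316), and the fitted log2 fold change was below 0 for each (-0.32, -0.54 and -0.83), with Col20a1 called. Col19a1 and Col9a1 lie next to each other on chromosome 1, with Col19a1 called higher (1.11 ± 0.28) and Col9a1 at -0.29 ± 0.21 (adjusted p = 0.249 by edgeR). These neighbours were picked after their values were seen, and whether position bears on the changes was not tested.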
